A study of Mus musculus with 2 samples.

Results

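The genes described here are 39 synaptic vesicle and release genes, chosen by symbol from the 33207 genes counted in each of 2 single-cell RNA sequencing libraries. All 39 are in the files. By role they are 4 SNAREs (*Snap25*, *Vamp1*, *Vamp2*, *Stx1a*), 5 synaptotagmins (*Syt1*, *Syt2*, *Syt4*, *Syt11*, *Syt13*), 8 proteins of the vesicle membrane and its coat (*Sv2a*, *Sv2b*, *Sv2c*, *Syn1*, *Syn2*, *Syn3*, *Syp*, *Sypl*), 3 small GTPases (*Rab3a*, *Rab3b*, *Rab3c*), 10 active zone and priming genes (*Rims1*, *Rims2*, *Rimbp2*, *Unc13a*, *Unc13b*, *Cplx1*, *Cplx2*, *Bsn*, *Pclo*, *Erc2*), 2 synucleins (*Sncb*, *Sncg*), 5 vesicular transporters (*Slc17a6*, *Slc17a7*, *Slc17a8*, *Slc32a1*, *Slc18a3*) and 2 neurexins (*Nrxn2*, *Nrxn3*). The libraries hold Tomato-positive cells sorted from the meninges, dorsal root ganglia and nerve roots of *Egr2*-Cre; R26-Tomato mouse embryos of stage E11.5 or E12.5. Both carry the same alleles, with Cre driven from *Egr2* (Krox20), a gene of boundary cap cells, and a reporter that stays on in all descendants of a recombined cell. The labels call the sorted cells boundary cap cells. Each library pooled the embryos of 1 litter, there was 1 library per stage, and no group without the reporter was used here.

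A neuron releases transmitter by fusing synaptic vesicles with its membrane. Transporters fill the vesicle, RAB3 and synapsins hold it near the terminal, RIM, UNC13 and the large scaffolds Bassoon and Piccolo dock and prime it at the active zone, and the SNARE proteins drive fusion when synaptotagmin senses calcium, with complexins as regulators. Sensory neurons of the dorsal root ganglion are glutamatergic, and VGLUT2 (*Slc17a6*) is known as their main vesicular glutamate transporter. In this lineage the proneural factor NEUROG1 drives the step from a SOX10-positive precursor to a sensory neuron, and ISL1 is present once the cell has become a neuron.

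After filtering, the E11.5 library kept 833 cells of 1431 barcodes and that of E12.5 kept 3496 of 3762, with medians of 11601 and 6140 UMIs (unique molecules counted) per cell. The libraries share 9 barcode sequences. Cells were assigned to states by 3 genes that are not members. Glia had *Sox10* and neither *Neurog1* nor *Isl1* (343 cells at E11.5, 1126 at E12.5). Progenitors had *Neurog1* without *Isl1* (77 and 142), nascent neurons had both (204 and 502), and neurons had *Isl1* without *Neurog1* (103 and 1121). Outside cells (48 and 238) had none of the 3 and at least 3 of 13 mesenchymal, pericyte, myeloid or endothelial markers, and the remaining 58 and 367 cells were left aside. Genes outside the gates differed between the states, though glial markers were higher in neurons than in nascent neurons, as given below. *Fabp7*, of glia, was at 1754 and 3428 CPM in glia against 353 and 542 in nascent neurons, while *Tubb3*, of neurons, was at 87.2 and 88.3 against 3276 and 4349.8 in neurons. Levels are given as CPM, for which the cells of a state are pooled and a gene's UMIs are scaled to 1e6 UMIs of the pool. *Prss56*, a boundary cap marker, was in 104 of the 343 and 367 of the 1126 glia. The gate on progenitors is loose. Only 1 *Neurog1* UMI was found in 49 of the 77 at E11.5 and 102 of the 142 at E12.5, and 7 and 55 had no *Sox10*. Glial markers summed to 2773 and 5502 CPM in progenitors, against 2979 and 5462 in glia. The 10 neuron markers summed to 473 and 856 CPM in progenitors, against 384 and 435 in glia. The gate on neurons is loose as well. In all, 40 of the 103 E11.5 neurons and 232 of the 1121 of E12.5 had only 1 *Isl1* UMI, 39 and 199 also had *Sox10*, and their glial markers summed to 1229.6 and 1024 CPM against 512 and 768 in nascent neurons. All 3 motor neuron markers and both spinal interneuron markers were at or under 0.575 CPM when summed in any of the 4 lineage states. The 4 sympathetic neuron markers (*Hand2*, *Dbh*, *Phox2a*, *Th*) summed to 1.81 and 21.8 CPM in neurons, 0.782 and 4.31 in nascent neurons and 0.243 and 0.982 in glia. Of the 168 UMIs in E12.5 neurons 164 were of *Th*, which some sensory neurons also express, with 0 of *Hand2*, 3 of *Dbh* and 1 of *Phox2a*, and the part of these cells in the differences described was not tested.

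With 1 library per stage there is no replicate, so nothing was tested, and stage, litter, library and depth cannot be told apart. Values in parentheses after a level or a ratio are exact 95% counting intervals. They treat UMIs as independent and cover counting error only, so they are too narrow where a few cells carry most of a gene's UMIs. A gene was counted as higher or lower in a comparison when its CPM differed by 2-fold or more and it had 20 or more UMIs in the 2 states together. The kit counts molecules by the ends of transcripts, so levels of different genes are not per length and also depend on how well each end is captured.

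Neurons held more of most of these genes than glia did. At E11.5, 20 of the 27 members with enough UMIs were higher in neurons, where 8.66% of all 10948 genes compared were, and 3 (*Sv2b*, *Sypl*, *Rab3b*) were lower, where 11.0% of all genes were. At E12.5, 29 of 35 were higher, with 12.4% of all 13893 genes, and 3 (*Vamp1*, *Sv2b*, *Sypl*) were lower, with 19.1% of all genes. With a state at 0 UMIs set at 3, the median ratio of neurons to glia over the compared members was 10.2 and 14.5, against 0.940 and 0.909 over all genes and 43.8 and 44.9 over 10 general neuron markers (among them *Tubb3*, *Stmn2*, *Dcx* and *Nefl*). All 20 members higher at E11.5 were also higher at E12.5, where they made up 68.97% of the 29. The same overlap over all genes was not computed, so it does not set the members apart. The 12 members not compared at E11.5 had under 20 UMIs in neurons and glia together. Under the 6 alternative gates on cells the E11.5 count was 20 to 24 of 26 to 31 members compared. The share of all genes higher there was 8.66% to 11.9%. The E12.5 count was 28 to 29 of 34 to 35, with 12.4% to 14.9% of all genes.

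**Figure D1:**
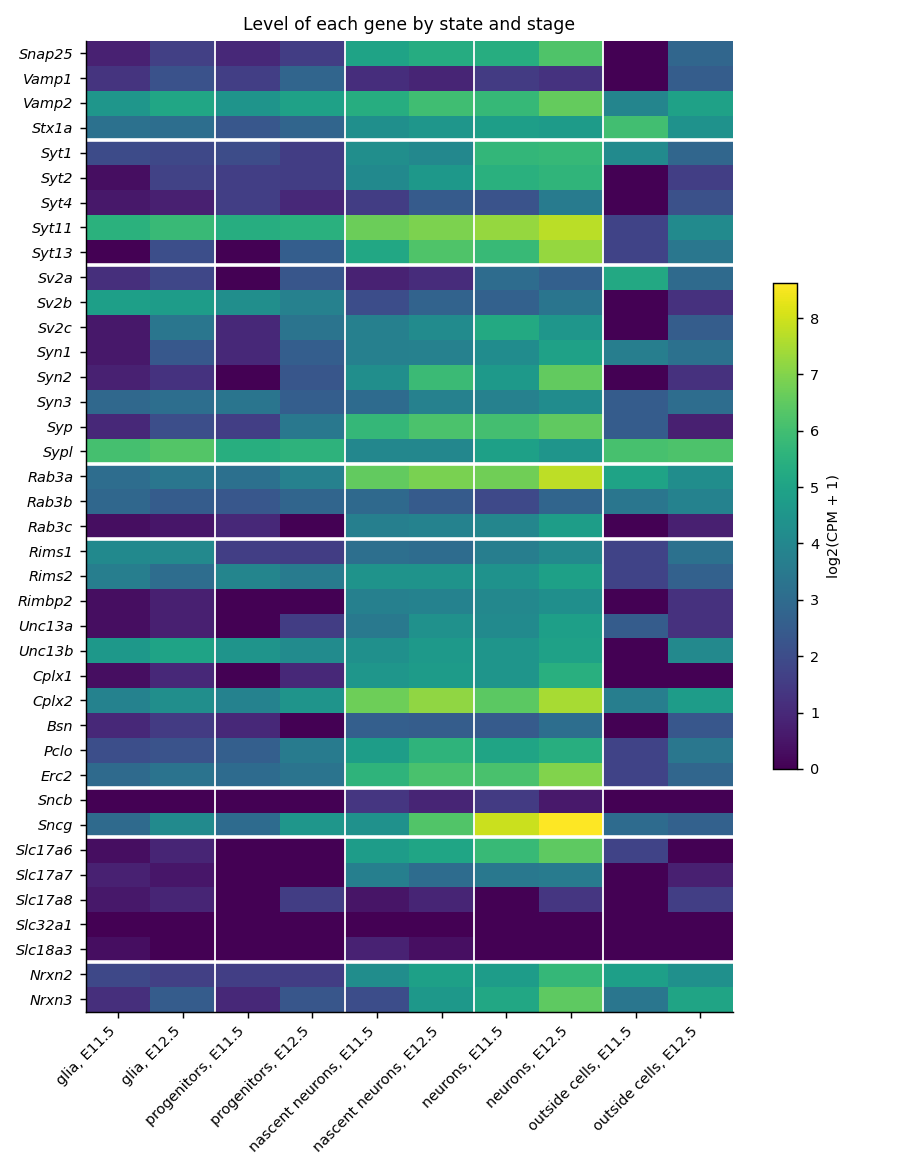
Level of each of the 39 genes, as log2(CPM + 1), by state and stage, with white lines between roles and between states. Most rows brighten from progenitors to nascent neurons and again to neurons, while *Sypl*, *Sv2b* and *Unc13b* are already bright in glia and *Slc32a1* and *Slc18a3* stay at or near 0.

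The levels were low in absolute terms. In the neurons of E11.5, 10 members reached 50 CPM, and in those of E12.5, 14. At the 2 stages 8 and 5 were at 5 CPM or less, and the 39 together summed to 1417 and 2353 CPM. In glia they summed to 288 and 372 CPM, in progenitors to 235 and 316, and in nascent neurons to 849 and 1238. When every cell was thinned to 2000 UMIs, a neuron of E11.5 held a median of 1 member and a neuron of E12.5 held 3. The medians per glial cell were 0 and 1. No member was found in 51.0% of E11.5 glia and 49.4% of E12.5 glia, so these glial medians do not show a stage difference. Without thinning the medians were 4 and 7 in neurons and 2 and 2 in glia.

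**Figure D2:**
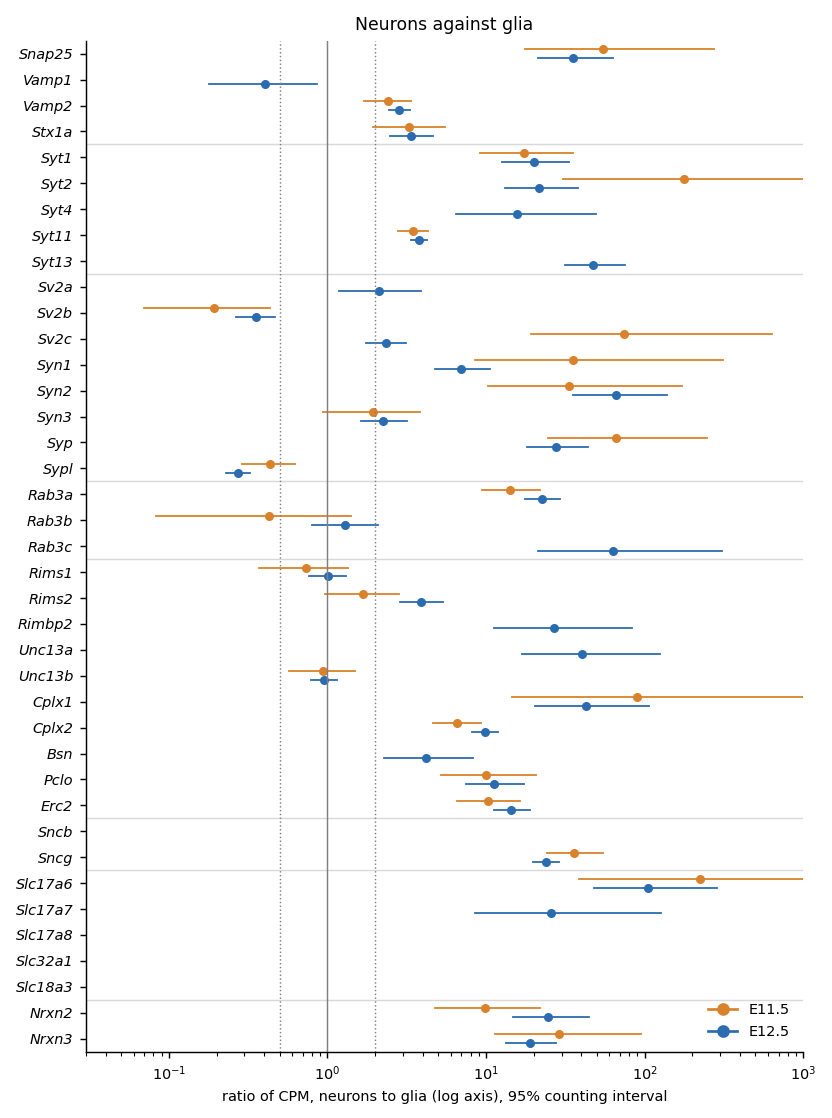
Ratio of CPM in neurons to CPM in glia for each gene at E11.5 (orange) and E12.5 (blue), on a log axis, with 95% counting intervals that end at the edge of the axis where they run past it. Dotted lines mark 2-fold either way, genes with under 20 UMIs in both states together or with 0 UMIs in either state are left blank, and most points lie to the right of the upper line, with *Sv2b* and *Sypl* to the left of the lower line at both stages.

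Among the SNAREs, *Snap25*, the plasma membrane partner in the fusion complex, was near 0 before the neuronal states. At E11.5 it was at 0.729 CPM in glia, 1.01 in progenitors, 31.3 in nascent neurons and 39.8 (28.9–53.4) in neurons. At E12.5 it was at 2.11 CPM in glia, 1.99 in progenitors, 39.1 in nascent neurons and 74.5 (68.5–80.8) in neurons. Neurons exceeded glia 54.6-fold (17.5–275) and 35.4-fold (21.3–63.6). *Vamp2*, the vesicle SNARE, was at 22.1 CPM in glia, 21.2 in progenitors, 40.3 in nascent neurons and 53.4 (40.6–68.9) in neurons at E11.5. At E12.5 the levels were 33.4 CPM in glia, 29.8 in progenitors, 61.5 in nascent neurons and 94.7 (87.9–102) in neurons. It was present in every state, and neurons exceeded glia by only 2.41-fold (1.71–3.39) and 2.83-fold (2.45–3.29). *Stx1a*, syntaxin 1A, was at 27.1 and 25.4 CPM in neurons and 8.26 and 7.58 in glia, ratios of 3.28 (1.94–5.53) and 3.35 (2.47–4.62). *Vamp1*, a close paralog of *Vamp2*, was under 4 CPM in glia and under 2 CPM in neurons, and at E12.5 it was 2.46-fold (1.17–5.55) lower in neurons on 11 against 25 UMIs.

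Among the synaptotagmins, *Syt1* and *Syt2*, the fast calcium sensors, were near absent in glia and progenitors. *Syt1* was at 2.92 CPM in glia, 3.02 in progenitors, 17.98 in nascent neurons and 50.7 (38.3–65.8) in neurons at E11.5 and at 2.67 CPM in glia, 1.99 in progenitors, 15.2 in nascent neurons and 53.2 (48.2–58.6) in neurons at E12.5. *Syt2* was at 43.4 (32.02–57.6) and 48.4 (43.6–53.6) CPM in neurons and at 0.243 and 2.25 in glia. Neurons exceeded glia 17.4-fold (9.20–35.6) and 19.96-fold (12.6–33.5) for *Syt1*. *Syt11*, which does not bind calcium, was found in every lineage state at higher CPM, 43.99 CPM in glia, 40.3 in progenitors, 101 in nascent neurons and 152 (129.9–177) in neurons at E11.5, and 55.7 CPM in glia, 43.7 in progenitors, 121 in nascent neurons and 210.2 (200.1–221) in neurons at E12.5. Its neurons exceeded glia by 3.46-fold (2.78–4.29) and 3.77-fold (3.38–4.22), and 37.03% and 26.4% of glia had a UMI before thinning. *Syt13*, another form that lacks calcium binding, differed from *Syt11*. It was at 0 CPM in glia, 0 in progenitors, 34.8 in nascent neurons and 54.3 (41.4–69.9) in neurons at E11.5, with 0 UMIs in 343 glia and 77 progenitors, so that neurons were at least 74.5-fold above glia when glia are set at 3 UMIs. At E12.5 it was at 3.23 CPM in glia, 4.96 in progenitors, 74.2 in nascent neurons and 153 (144–162) in neurons, a neuron-to-glia ratio of 47.4 (31.4–75.04). *Syt4* was at 3.62 and 11.01 CPM in neurons, on 4 and 85 UMIs.

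Among the vesicle membrane and coat genes, synaptophysin and its relative differed in opposite directions. *Syp*, a main protein of the synaptic vesicle membrane, was at 0.972 CPM in glia, 2.02 in progenitors, 51.99 in nascent neurons and 64.2 (50.2–81.03) in neurons at E11.5 and at 3.23 CPM in glia, 9.93 in progenitors, 71.3 in nascent neurons and 89.2 (82.7–96.1) in neurons at E12.5. Neurons exceeded glia 66.1-fold (24.7–249) and 27.6-fold (18.3–43.9). *Sypl*, the synaptophysin-like gene of non-neuronal vesicles (*Sypl1* in current annotation), was at 66.8 CPM in glia, 41.3 in progenitors, 14.9 in nascent neurons and 28.95 (19.8–40.9) in neurons at E11.5 and at 78.2 CPM in glia, 46.7 in progenitors, 14.9 in nascent neurons and 21.4 (18.2–24.9) in neurons at E12.5. It was 2.31-fold (1.60–3.44) and 3.66-fold (3.07–4.38) lower in neurons than in glia, and already 2.78-fold (1.74–4.44) and 3.12-fold (2.06–4.72) lower in nascent neurons than in progenitors. *Syp* spans chrX:7504710-7519499 and *Sypl* chr12:33003855-33030855 in GRCm39. Their promoters are printed to show the pair side by side, from RefSeq on GRCm38.p6, a different build from that of the counts, as 250 bases before to 50 after the start, 5′ to 3′ on the + strand, at chrX:7638330-7638629 and chr12:32953695-32953994 (the first of 2 starts listed), with the searched motifs GGGCGG and CAGCTG in capitals on either strand.
Syp: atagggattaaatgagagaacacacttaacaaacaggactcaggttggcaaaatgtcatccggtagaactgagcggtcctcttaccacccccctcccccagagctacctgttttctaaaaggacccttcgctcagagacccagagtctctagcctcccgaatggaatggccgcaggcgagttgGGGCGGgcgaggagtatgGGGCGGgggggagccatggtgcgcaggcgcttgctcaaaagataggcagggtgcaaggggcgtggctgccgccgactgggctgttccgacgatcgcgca
Sypl: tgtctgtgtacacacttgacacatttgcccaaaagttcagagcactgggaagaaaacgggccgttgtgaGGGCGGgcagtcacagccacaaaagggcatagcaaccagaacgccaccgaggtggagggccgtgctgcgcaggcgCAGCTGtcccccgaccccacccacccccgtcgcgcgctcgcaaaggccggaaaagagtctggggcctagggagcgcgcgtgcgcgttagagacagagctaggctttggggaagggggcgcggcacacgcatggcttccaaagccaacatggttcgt
Each holds the GC-box letters GGGCGG, and *Sypl* alone of the pair holds CAGCTG, one form of the E-box. Over the 32 members with a promoter entry, searched on both strands, GGGCGG was in 25 of the 32 (78.1%) against 46.3% of 17492 protein-coding genes, and CAGCTG was in 8 of the 32 (25%) against 15.1%. The E-box CAGATG was in 3 (9.38%) against 14.8%, the letters TGACGT of the CRE in 3 (9.38%) against 8.76%, the homeodomain letters TAATTA in 0 against 4.68%, and AGCACC, part of the longer RE1 motif, in 8 (25%) against 15.9%. Such matches describe letters and not bound sites.

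*Syn2*, a synapsin that ties vesicles together, was at 0.729 CPM in glia, 0 in progenitors, 17.98 in nascent neurons and 24.4 (16.1–35.5) in neurons at E11.5 and at 1.40 CPM in glia, 3.97 in progenitors, 58.1 in nascent neurons and 92.3 (85.7–99.4) in neurons at E12.5, with neuron-to-glia ratios of 33.5 (10.3–173) and 65.8 (35.6–138). *Syn1* was at 17.2 and 29.3 CPM in neurons with ratios of 35.4 (8.53–313) and 6.95 (4.74–10.5), and *Syn3* at 12.7 and 17.1 with ratios of 1.93 (0.936–3.81) and 2.26 (1.63–3.16). The 3 SV2 glycoproteins, which act in the vesicle cycle, differed from each other. *Sv2b* was higher in glia, at 28.2 and 25.96 CPM against 5.43 and 9.19 in neurons, 5.19-fold (2.31–14.4) and 2.82-fold (2.14–3.77) lower in neurons. *Sv2c* was at 36.2 and 21.9 CPM in neurons and 0.486 and 9.403 in glia, so that its ratio was 74.5 (19.3–636) at E11.5 and 2.33 (1.74–3.14) at E12.5. *Sv2a* was under 8 CPM in all 4 lineage states. *Sv2c* overlaps the coding gene *Btf3l4b* on the same strand and *Syt1* overlaps *Brcc3dc*, and reads shared with these cannot be told apart.

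*Rab3a*, the main GTPase of synaptic vesicles, was at 7.53 CPM in glia, 8.06 in progenitors, 91.5 in nascent neurons and 107 (88.4–128) in neurons at E11.5 and at 9.54 CPM in glia, 12.9 in progenitors, 117 in nascent neurons and 215 (205–226) in neurons at E12.5. It was 14.2-fold (9.47–21.8) and 22.6-fold (17.7–29.2) higher in neurons than in glia. *Rab3c* was at 14.5 and 26.5 CPM in neurons and under 1 CPM in glia. *Rab3b* stayed between 2.71 and 6.65 CPM in the lineage states of both stages, with 3 UMIs in E11.5 neurons, and did not follow the other 2.

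Of the active zone and priming genes, *Cplx2* and *Erc2* had the highest CPM. *Cplx2*, a complexin, was at 13.1 CPM in glia, 13.1 in progenitors, 103 in nascent neurons and 85.95 (69.5–105) in neurons at E11.5 and at 18.2 CPM in glia, 20.9 in progenitors, 145 in nascent neurons and 179 (169.9–189) in neurons at E12.5, with ratios of 6.55 (4.64–9.32) and 9.82 (8.20–11.9). *Erc2*, the scaffold ELKS2/CAST, was at 6.80 CPM in glia, 7.05 in progenitors, 47.3 in nascent neurons and 69.7 (54.98–87.1) in neurons at E11.5 and at 8.70 CPM in glia, 8.94 in progenitors, 70.4 in nascent neurons and 126 (118–134) in neurons at E12.5, with ratios of 10.2 (6.57–16.4) and 14.5 (11.2–19.00). Both were detected in glia at a low level and were several-fold higher in nascent neurons. *Cplx1*, *Rimbp2* and *Unc13a* were lower in CPM but nearer to absent in glia: they stood at 41.96, 18.8 and 28.1 CPM in E12.5 neurons and at 1 CPM or less in glia, with ratios of 42.7 (20.5–107), 26.8 (11.2–83.7) and 40.05 (16.9–125). *Pclo* (Piccolo) was at 31.7 and 40.8 CPM in neurons, and *Bsn* (Bassoon) at 4.52 and 7.64. The paralogs of the priming factors differed. *Unc13b* was level across the lineage, at 23.1 and 31.01 CPM in glia and 21.7 and 29.4 in neurons, with ratios of 0.941 (0.575–1.48) and 0.948 (0.784–1.15). *Rims1* was at 16.04 and 15.6 CPM in glia, 2.02 and 1.99 in progenitors and 11.8 and 15.7 in neurons, lowest in progenitors at both stages on 2 UMIs each. *Rims2* was 1.67-fold (0.962–2.82) and 3.88-fold (2.87–5.34) higher in neurons than in glia, and passed 2-fold at E12.5. Several of these genes are long (*Nrxn3* 1612 kb, *Erc2* 856 kb, *Rims1* 490 kb), and whether reads in introns were counted is not given in the sources used here.

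*Sncg*, γ-synuclein, known in sensory neurons, had the highest CPM of the 39 in neurons. It was at 6.80 CPM in glia, 7.05 in progenitors, 19.5 in nascent neurons and 244 (216–275) in neurons at E11.5 and at 16.4 CPM in glia, 21.8 in progenitors, 75.9 in nascent neurons and 391 (377–405) in neurons at E12.5. Neurons exceeded glia 35.9-fold (24.3–55.05) and 23.8-fold (19.8–28.9). The E11.5 level came from few cells. Of its 270 UMIs in neurons, 117 were in 1 cell, and 78 of the 103 neurons had none. At E12.5 the 3020 UMIs were spread over 403 of 1121 neurons, with at most 107 in 1 cell. *Sncb*, β-synuclein, had 2 and 4 UMIs in neurons and 0 in glia and progenitors. *Nrxn3*, a presynaptic adhesion molecule, resembled *Sncg*. It was at 1.22 CPM in glia, 1.01 in progenitors, 3.13 in nascent neurons and 35.3 (25.1–48.2) in neurons at E11.5, with 39 neuronal UMIs in 10 cells and 17 of them in 1 cell, and at 4.63 CPM in glia, 3.97 in progenitors, 22.99 in nascent neurons and 87.4 (80.9–94.3) in neurons at E12.5. *Nrxn2* was more even, at 2.67 CPM in glia, 2.02 in progenitors, 17.6 in nascent neurons and 26.2 (17.6–37.7) in neurons at E11.5 and at 2.11 CPM in glia, 1.99 in progenitors, 29.03 in nascent neurons and 51.8 (46.8–57.1) in neurons at E12.5. Each was higher in neurons than in glia at both stages, by 9.81-fold (4.76–21.8) and 24.6-fold (14.7–44.4) for *Nrxn2* and 29.04-fold (11.4–94.4) and 18.9-fold (13.3–27.6) for *Nrxn3*.

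Of the 5 vesicular transporters, *Slc17a6*, VGLUT2, had the highest CPM in neurons and was found in the most neurons at both stages. It was at 0.243 CPM in glia, 0 in progenitors, 26.2 in nascent neurons and 54.3 (41.4–69.9) in neurons at E11.5 and at 0.842 CPM in glia, 0 in progenitors, 32.8 in nascent neurons and 88.6 (82.1–95.5) in neurons at E12.5, on 1 and 6 UMIs in glia. Before thinning it was found in 23 of 103 cells (22.3%, 14.7–31.6%) of the E11.5 neurons and 367 of 1121 cells (32.7%, 30.00–35.6%) of the E12.5 neurons. After thinning to 2000 UMIs the counts were 8 of 103 cells (7.77%, 3.41–14.7%) and 136 of 1081 cells (12.6%, 10.7–14.7%). Glia, which should lack it and had medians of 12264 and 5924.5 UMIs against 10638 and 6553 in neurons, had a UMI in 1 of 343 cells (0.292%, 0.00738–1.61%) and 6 of 1126 cells (0.533%, 0.196–1.16%). The intervals of the shares in neurons lie above those in glia at both stages. Most neurons had no UMI of it, and a cell without one is not shown to lack it. Among neurons with 8 or more *Isl1* UMIs, 22 of 41 cells (53.7%, 37.4–69.3%) and 279 of 490 cells (56.9%, 52.4–61.4%) had one before thinning. These cells were deeper than neurons as a whole, with medians of 13739 and 7815 UMIs, and the part of depth was not tested. In a second random thinning draw the share of all E12.5 neurons was 14.99%.

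*Slc17a7*, VGLUT1, was at 0.729 CPM in glia, 0 in progenitors, 12.1 in nascent neurons and 9.95 (4.97–17.8) in neurons at E11.5 and at 0.421 CPM in glia, 0 in progenitors, 7.19 in nascent neurons and 10.9 (8.68–13.5) in neurons at E12.5. Before thinning it was in 10 of 103 cells (9.71%, 4.75–17.1%) and 79 of 1121 cells (7.05%, 5.62–8.71%) of neurons and in 27 of 204 cells (13.2%, 8.91–18.7%) and 24 of 502 cells (4.78%, 3.09–7.03%) of nascent neurons. After thinning the neurons with it were 0 of 103 and 18 of 1081. Both transporters were found together in 7 of 103 neurons of the E11.5 library and 39 of 1121 of the other. In CPM the order in E12.5 neurons was *Slc17a6*, *Slc17a7*, *Slc17a8*, with intervals that do not overlap, and then the other 2 at 0. *Slc17a8*, VGLUT3, had 0 UMIs in E11.5 neurons and 12 in E12.5 neurons, in 12 of 1121 cells, against 2 of 343 and 6 of 1126 glia. *Slc32a1*, the vesicular transporter of GABA and glycine, had 0 UMIs in all 4 lineage states at both stages, which allows up to 0.389 CPM in E12.5 neurons, and a single UMI among the E11.5 cells left aside. *Slc18a3*, the vesicular acetylcholine transporter, had 0 UMIs in neurons, 2 and 1 in nascent neurons and 1 in E11.5 glia, and it lies inside *Chat* on the same strand. Counting all 3 glutamate transporters, 26 of 103 cells (25.2%, 17.2–34.8%) and 412 of 1121 cells (36.8%, 33.9–39.7%) of neurons had at least 1.

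The transporter genes lie at chr7:51271434-51320867 (*Slc17a6*), chr7:44813305-44825644 (*Slc17a7*) and chr2:158452605-158464883 (*Slc32a1*) in GRCm39. Their promoters show the pair of glutamate transporters found in neurons beside the GABA transporter that was not. They come from RefSeq on GRCm38.p6, + strand, 5′ to 3′, at chr7:51621580-51621879 (the first of 2 starts listed), chr7:45163671-45163970 and chr2:158610508-158610807, with GGGCGG (or CCGCCC, its reverse complement) and AGCACC in capitals.
Slc17a6: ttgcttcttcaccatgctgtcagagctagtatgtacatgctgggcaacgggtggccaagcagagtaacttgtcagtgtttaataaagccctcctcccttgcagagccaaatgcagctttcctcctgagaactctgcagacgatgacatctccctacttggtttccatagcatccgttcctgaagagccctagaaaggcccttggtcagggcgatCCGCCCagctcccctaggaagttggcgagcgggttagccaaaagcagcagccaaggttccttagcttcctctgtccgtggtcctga
Slc17a7: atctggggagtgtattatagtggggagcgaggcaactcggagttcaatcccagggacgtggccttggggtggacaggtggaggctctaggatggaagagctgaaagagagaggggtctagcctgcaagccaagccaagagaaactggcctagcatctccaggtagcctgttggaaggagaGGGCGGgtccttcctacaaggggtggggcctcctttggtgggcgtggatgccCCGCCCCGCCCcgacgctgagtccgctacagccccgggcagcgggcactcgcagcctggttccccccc
Slc32a1: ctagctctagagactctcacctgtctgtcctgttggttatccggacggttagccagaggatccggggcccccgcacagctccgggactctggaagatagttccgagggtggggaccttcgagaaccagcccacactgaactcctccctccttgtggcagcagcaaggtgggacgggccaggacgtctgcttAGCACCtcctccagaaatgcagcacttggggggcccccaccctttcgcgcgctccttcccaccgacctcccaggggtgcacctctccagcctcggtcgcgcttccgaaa
*Slc17a6* and *Slc17a7* held 1 and 3 GGGCGG on either strand, overlapping matches counted, and no AGCACC, and *Slc32a1* held 1 AGCACC and no GGGCGG. Of the transporters not printed, *Slc17a8* held AGCACC and no GGGCGG, and *Slc18a3* held GGGCGG and no AGCACC. Over the printed windows 53.7%, 63.7% and 63.3% of bases were G or C, in the order shown.

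**Figure D3:**
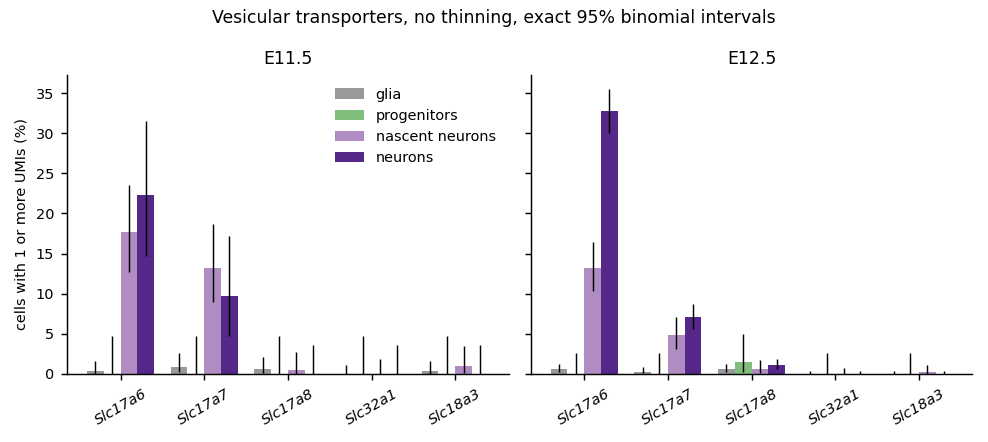
Share of cells, in percent, with 1 or more UMIs of each vesicular transporter, without thinning, by state at E11.5 (left) and E12.5 (right), with exact 95% binomial intervals that cover counting error only. *Slc17a6* stands highest in neurons, *Slc17a7* is lower, and the other 3 lie at or near 0 in every state.

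Most members compared were higher in nascent neurons than in progenitors. Few genes of any kind were higher in progenitors than in glia, so the small counts of members there do not set the members apart. Against glia, progenitors had 0 members higher of 14 at E11.5, where 1.83% of all genes were, and 2 of 23 (*Syp*, *Pclo*) at E12.5, where 2.96% were. *Syp* stood at 9.93 CPM in E12.5 progenitors on 10 UMIs and *Pclo* at 10.9 on 11. At E11.5 the floor of 20 UMIs left out members near absent in both states. Among them were *Snap25* (3 UMIs in glia and 1 in progenitors) and *Slc17a6* (1 and 0). For such members the counts do not show whether progenitors were higher. *Rims1* was lower in progenitors than in glia at both stages, *Stx1a* at E11.5 and *Sv2b* at E12.5, where 6.29% and 10.9% of all genes were lower. Against progenitors, nascent neurons had 23 of 30 members higher at E11.5, with 10.4% of all genes, and 25 of 31 at E12.5, with 10.7% of all genes. *Sv2b* and *Sypl* were the members lower at both stages, where 10.5% and 10.0% of all genes were lower. The median ratio over members was 5.61 and 4.44, against 0.957 and 0.982 over all genes and 23.6 and 11.04 over the neuron markers. With 2 UMIs required of each gate gene the E12.5 count was 13 of 18, with 11.7% of all genes, and with states set after thinning the E11.5 count was 9 of 9, with 11.2%, fewer members having enough UMIs. Against glia, nascent neurons had 22 of 30 members higher and 3 lower at the earlier stage, with 9.09% and 15.7% of all genes, and 25 of 35 higher and 5 lower at the later, with 9.58% and 21.3%. Neurons against progenitors gave 20 of 25 and 29 of 34 higher, with 9.79% and 14.4% of all genes, and 1 lower at each stage (*Sv2b*, then *Sypl*), with 6.67% and 11.2%.

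The step held for members of several roles. *Snap25* was 31.04-fold (5.41–1241) and 19.7-fold (5.35–164) higher in nascent neurons than in progenitors, *Syp* 25.8-fold (7.004–215) and 7.18-fold (3.84–15.2), and *Rab3a* 11.3-fold (5.67–26.6) and 9.06-fold (5.24–17.2). *Cplx2* was 7.85-fold (4.51–14.9) and 6.96-fold (4.50–11.3) higher. *Slc17a6*, with 0 UMIs in progenitors, was at least 8.67-fold and at least 11.00-fold higher, and *Slc17a7* at least 4.01-fold and at least 2.41-fold. *Sncg* was higher by 2.77-fold (1.25–7.25) and 3.47-fold (2.25–5.64). Cycling genes summed to 1314 and 1260.0 CPM in progenitors, 836 and 713 in nascent neurons and 502 and 305 in neurons. Their part in the differences was not tested.

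With the main gates, most members compared between nascent neurons and neurons differed by under 2-fold. Neurons had 6 of 30 members higher in the E11.5 library and 11 of 34 in the E12.5 library, with 6.8% and 7.98% of all genes. *Nrxn3*, *Slc17a6*, *Sncg*, *Syt1* and *Syt2* were higher at both stages. *Rab3b* was lower at E11.5, on 3 UMIs, and no member was lower at E12.5, with 3.07% and 2.03% of all genes. These counts depend on the gates. Only 1 *Neurog1* UMI was found in 50 of the 204 nascent neurons of E11.5 and 320 of the 502 of E12.5. With 2 UMIs of each gate gene, which narrows both states, the counts were 10 of 28 and 24 of 34, with 5.62% and 11.9% of all genes. With *Sox10* at 0 in both states they were 6 of 29 and 10 of 34, with 5.43% and 6.91% of all genes.

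Grouping all *Isl1*-positive cells by their *Isl1* UMIs (1, 2 to 3, 4 to 7, 8 or more), a grouping chosen after the values were seen, gave a graded difference. The 39 members summed to 263, 262, 419 and 1496 CPM over the 4 groups at E11.5 and to 474, 918, 1733 and 2960.3 at E12.5. At E11.5, 40 of the 60 cells with 1 UMI also had *Sox10*. Their sum of members, 263 (223–308) CPM, overlapped that in glia, 288 (272–305). They differed from glia in other genes. *Pou4f1* was at 98.5 CPM in them, while 8 sensory neuron markers, *Pou4f1* among them, summed to 33.1 CPM in glia. *Syp* went through 1.73, 8.66, 42.2 and 82.4 CPM at E11.5 and 17.02, 45.7, 83.5 and 117 at E12.5. *Slc17a6* went through 0, 4.33, 0 and 56.9 and 7.74, 15.95, 46.8 and 119, and *Sncg* through 5.19, 12.98, 11.7 and 139 and 39.7, 75.4, 214 and 476. At E11.5, *Syp* was at 51.2% of its top level in cells with 4 to 7 *Isl1* UMIs, *Rab3a* at 18.7%, and *Sncg* at 8.41%. *Slc17a6* had 0 UMIs in those 38 cells, which allows up to 7.03 CPM. *Sypl* ran the other way, through 57.1, 25.97, 9.37 and 9.56 and 49.5, 14.5, 10.9 and 13.7 CPM. The median depth of the 4 groups was 8906, 10388, 11057 and 13216 UMIs at the earlier stage and 5966, 5176, 6063 and 7714 at the later, where the second group was the shallowest. The share of cells with *Sox10* was 66.7%, 65.9%, 39.5% and 13.1% at the earlier stage and 50%, 15.2%, 9.97% and 7.83% at the later. The part of depth and of *Sox10* in these values was not tested.

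**Figure D4:**
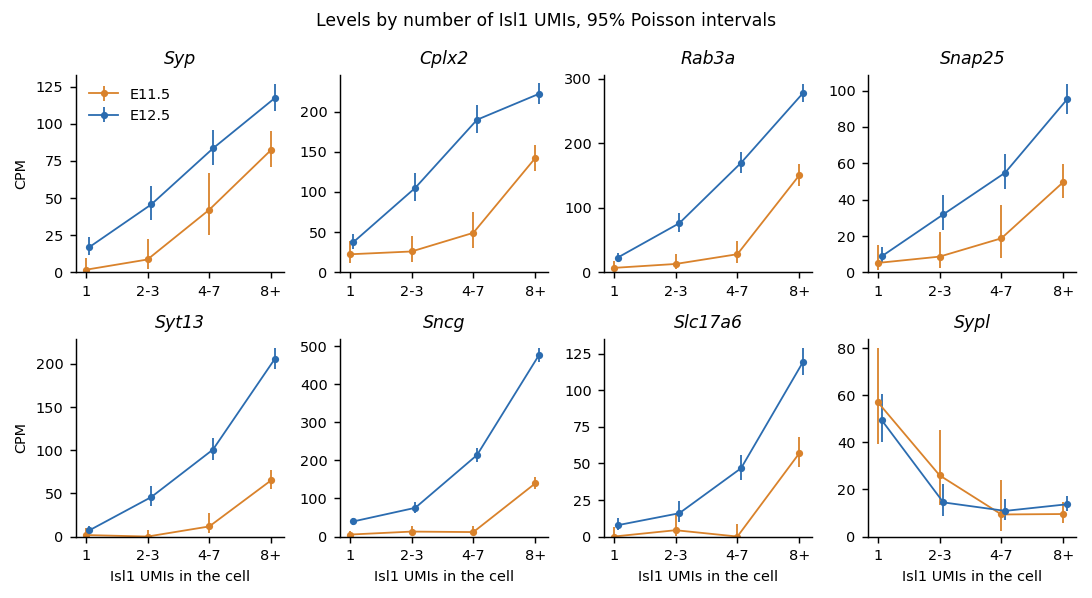
CPM of 8 genes in *Isl1*-positive cells grouped by their number of *Isl1* UMIs, at E11.5 (orange) and E12.5 (blue), with exact 95% Poisson intervals. Every gene but *Sypl* is highest in cells with 8 or more *Isl1* UMIs, and *Sypl* is highest in cells with 1.

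Among cells with 8 or more *Isl1* UMIs, most members compared differed by under 2-fold between nascent neurons and neurons. The share of members higher in neurons was nonetheless above that of all genes at both stages. There, 8 of 29 members were higher in neurons (41 cells) than in nascent neurons (127) of the E11.5 library, and 5 of 34 were in the E12.5 library (490 and 174 cells), with 4.54% and 4.93% of all genes. No member was lower, with 6.66% and 3.17% of all genes. At E11.5 the members together summed to 1185 (1132–1239) CPM in such nascent neurons and 2383 (2258–2513) in such neurons. At E12.5 the sums were 2100 (2024–2179) and 3248 (3193–3304) CPM. These sums include *Sncg*. *Sncg* was at 29.5 CPM in such nascent neurons and 452 in neurons at E11.5 (15.3-fold (11.2–21.3)), and at 173 and 578 at E12.5 (3.35-fold (2.92–3.84)). *Nrxn3* was higher by 16.1-fold (6.69–46.98) and 2.52-fold (1.93–3.35), and *Syt1* by 3.45-fold (2.25–5.33) and 2.92-fold (2.08–4.20). Over all E11.5 neurons, 117 of the 270 *Sncg* UMIs and 17 of the 39 *Nrxn3* UMIs were in 1 cell each. *Slc17a6* was higher by 2.46-fold (1.70–3.55) and 1.82-fold (1.47–2.28), under 2-fold at E12.5. Some other members were under 2-fold in this ratio of neurons to nascent neurons, with the interval of *Syp* above 1 at E11.5. *Syp* was at 1.56 (1.13–2.13) and 0.976 (0.814–1.17), *Cplx2* at 0.916 (0.698–1.19) and 1.11 (0.966–1.27), and *Slc17a7* at 1.12 (0.502–2.32) and 1.09 (0.612–2.04). At E12.5 *Pclo* was at 0.639 (0.491–0.837), lower in neurons by under 2-fold.

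**Figure D5:**
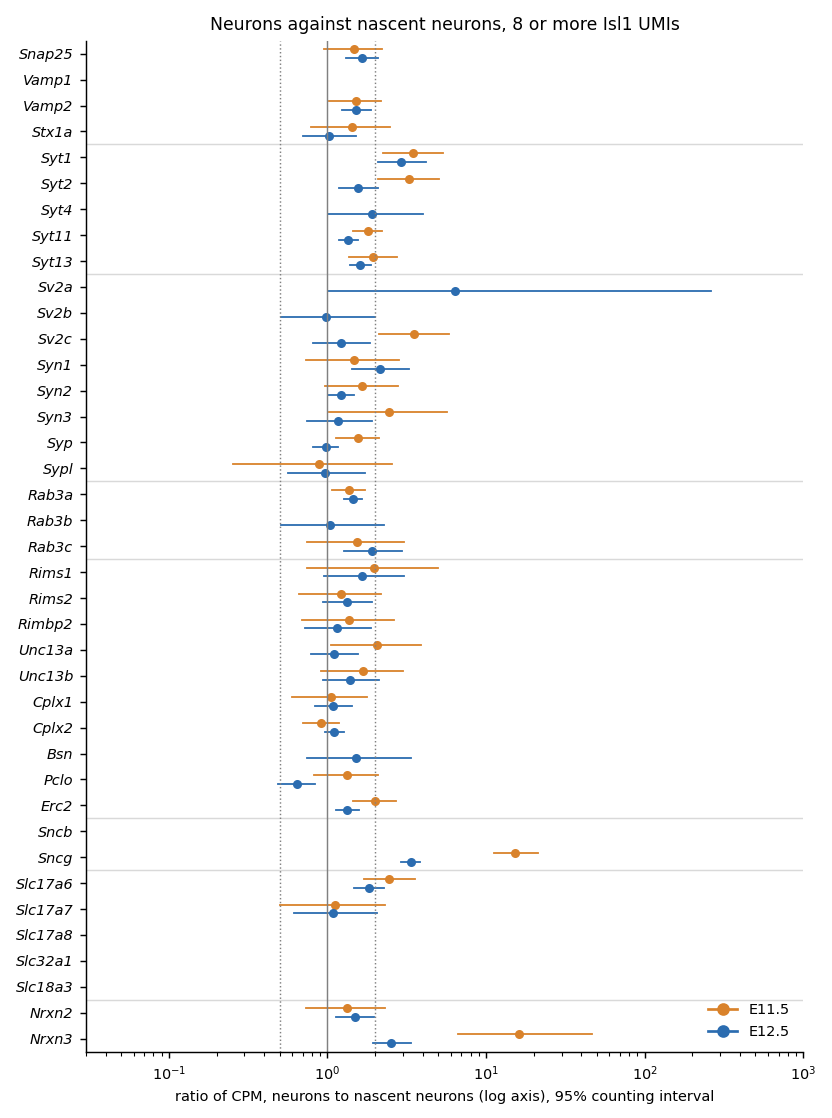
Ratio of CPM in neurons to CPM in nascent neurons among cells with 8 or more *Isl1* UMIs, at E11.5 (orange) and E12.5 (blue), on a log axis with 95% counting intervals. Genes with under 20 UMIs or with 0 UMIs in either state are left blank, most points lie between the dotted lines at 2-fold, and *Sncg*, *Nrxn3* and *Syt1* lie beyond the upper line at both stages.

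The glial level of the members was not the same fraction of the neuronal level for every gene. The 10 neuron markers, as a measure of neuronal RNA in glia, stood in glia at a median of 2.33% of their neuron level at E11.5 and 2.23% at E12.5, with *Gap43* highest at 30.5% and 25.6%. At E11.5 *Ina* was at 21.8% and *Elavl4* at 13.5%, and at both stages 7 of the 10 were at 5% or less. Over the 22 and 34 members with 20 or more UMIs in neurons, the median was 6.41% and 6.65%. *Snap25* was nearer the marker fraction, at 1.83% (0.364–5.71%) and 2.83% (1.57–4.70%), as was *Syp*, at 1.51% (0.401–4.05%) and 3.62% (2.28–5.47%). *Slc17a6* was lower, at 0.448% (0.0112–2.59%) and 0.951% (0.348–2.08%), with an interval under the marker median at E12.5. *Vamp2* stood at 41.4% (29.5–58.5%) and 35.3% (30.4–40.9%), *Syt11* at 28.9% (23.3–35.9%) and 26.5% (23.7–29.6%), and *Cplx2* at 15.3% (10.7–21.5%) and 10.2% (8.44–12.2%). Glia were next narrowed to cells with 2 or more *Sox10* UMIs and no *Pou4f1* or *Tlx3*. They were set against neurons with 2 or more *Isl1* UMIs and no *Sox10*. *Vamp2* still stood at 30.3% (20.4–45.5%) and 28.3% (23.2–34.2%) and *Syt11* at 19.8% (15.5–25.2%) and 21.9% (19.00–25.2%). *Snap25* stood at 0.861% (0.101–3.32%) and *Syp* at 0.541% (0.0641–2.04%) at E11.5. Over the 16 and 34 members with 20 or more UMIs in these neurons, the median was 2.12% and 5.03%. The marker medians were 1.30% and 1.90%. The highest marker stood at 20.3% and 22.4%, so that *Syt11* was within the range of the markers. *Sypl* then stood at 667% (515–876%) at E12.5 and *Sv2b* at 374% (262–540.5%).

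Glia with *Prss56*, a boundary cap marker (104 and 367 cells), were compared with glia without it (239 and 759). Of the members with enough UMIs, 0 of 14 and 0 of 21 were higher, with 1.53% and 2.17% of all genes, and 4 and 1 were lower, with 2.54% and 2.39%. *Rims2* was lower at both, 2.82-fold (1.30–6.95) and 3.12-fold (1.40–8.19), at 5.48 against 15.4 CPM and 3.05 against 9.52 CPM. The other 3 lower at E11.5 were *Rims1*, *Erc2* and *Sncg*. *Sypl* leaned the other way under 2-fold, by 1.45-fold (1.13–1.85) and 1.58-fold (1.33–1.88).

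Between the stages, neurons of E12.5 had 7 of 34 members higher than neurons of E11.5 (*Syt4*, *Syt13*, *Syn2*, *Rab3a*, *Rab3b*, *Cplx2*, *Nrxn3*) and 0 lower, with 8.7% and 4.96% of all genes. The median ratio over the members was 1.66, against 1.03 over all genes and 1.43 over the neuron markers. *Syn2* was higher by 3.78-fold (2.58–5.78), *Syt13* by 2.82-fold (2.17–3.72) and *Rab3a* by 2.02-fold (1.67–2.45). *Slc17a6* was at 1.63 (1.25–2.16) and *Syt1* at 1.05 (0.793–1.41). The neuron gate held more cells with 1 *Isl1* UMI at E11.5 (38.8%) than at E12.5 (20.7%). With 2 UMIs of each gate gene, 3 of 34 members were higher and 1 lower, where 8.92% and 4.50% of all genes were, so that under this gate the members' share was no larger than that of all genes. Among neurons with 8 or more *Isl1* UMIs, 4 of the 39 members were higher (*Syt4*, *Syt13*, *Syn2*, *Nrxn2*) and 1 lower (*Sv2c*), with 9.24% and 3.36% of all genes compared. Not all of the 39 had enough UMIs there, and counts this small do not set the members apart from all genes. In these neurons *Syn2* was higher by 2.96-fold (1.98–4.61) and *Syt13* by 2.24-fold (1.72–2.97), and *Sv2c* was lower by 2.34-fold (1.57–3.42). *Syt4*, *Syn2* and *Syt13* were thus past 2-fold in all neurons and in this part of them, *Syt4* on 4 UMIs in E11.5 neurons. The part lies within the whole, so it is not a separate set of cells. In the other states the same comparison of stages gave 8 higher and 0 lower of 24 members in glia (background 10.0% and 1.77%), 1 and 0 of 9 in progenitors (background 5.32% and 3.22%), and 5 and 0 of 33 in nascent neurons (background 5.53% and 2.22%). *Nrxn3*, *Sncg* and *Syt13* were higher at E12.5 in both glia and nascent neurons. In nascent neurons *Nrxn3* was higher by 7.35-fold (3.56–17.6), *Sncg* by 3.88-fold (2.86–5.36), *Syn2* by 3.23-fold (2.33–4.55) and *Syt13* by 2.13-fold (1.67–2.74), with *Syt4* the other member. In the nascent neurons of E12.5, 21 of the 80 *Nrxn3* UMIs and 69 of the 264 *Sncg* UMIs were in 1 cell each. *Sncg* was the member higher in progenitors, by 3.10-fold (1.28–8.58). In glia, *Sv2c* was higher by 19.3-fold (5.15–163) and *Syn1* by 8.66-fold (2.20–74.8), with *Vamp1*, *Sv2a* and *Syp* past 2-fold as well.

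Beyond the 39, 33 further genes of release and membrane traffic were listed, of which 32 are in the files. Among them were *Nsf*, *Napa*, *Snap23*, *Vamp3*, *Gad1*, *Gad2* and *Chat*, and the list was not matched to the 39. At E11.5, 3 of the 14 with enough UMIs were higher in neurons than in glia and 2 lower, where 8.66% and 11.0% of all genes were, and at E12.5 9 of 19 were higher and 4 lower, where 12.4% and 19.1% were. Their median ratios were 1.01 and 1.92, below those of the 39. At E12.5 the 5 with the largest ratios were *Doc2b*, a calcium sensor of spontaneous release, at 46.1 (12.4–386), *Synpr* (synaptoporin) at 16.6 (7.83–42.2), *Syngr3* (synaptogyrin 3) at 9.10 (4.19–23.5), *Cadps*, a priming factor of dense-core vesicles, at 7.01 (5.56–8.94) and *Syt5* at 6.46 (1.93–33.8). *Synpr* and *Cadps* were also higher at E11.5, by 5.89-fold (2.72–13.3) and 2.51-fold (1.88–3.35). *Vamp3*, the SNARE of general membrane traffic, and *Syngr1* were lower in neurons at both stages, *Vamp3* by 3.42-fold (2.49–4.82) and 4.03-fold (3.49–4.67).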

How the data were processed

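The authors sequenced the 2 libraries on the 10x Genomics Chromium system and counted them with Cell Ranger, version 7.0 in the submitters' processing notes and 7.0.1 in the matrix header, on mm39. The deposited values are whole-number UMI counts of each gene in each barcode, not normalized. The filters of the authors' methods were applied here: at most 10% mitochondrial UMIs, 2000 or more UMIs for E11.5 cells, 1000 or more for E12.5 cells, and a Scrublet score under 0.2 (scanpy 1.11.5), which removed 7 and 67 cells as doublets. Totals were 10287595 and 23460243 UMIs, of which 9541971 and 22456846 were left.

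A gene was positive with 1 UMI. Thinning drew 2000 UMIs per cell without replacement, once, and left out 0 and 165 kept cells. Levels have exact Poisson, shares exact binomial (Clopper-Pearson) and ratios conditional exact intervals at 95% (scipy 1.17.1). These cover counting error only. A state at 0 UMIs entered a ratio at 3 UMIs. No count model was fitted, since each stage is 1 library. The code for the ratios was checked on simulated counts.

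The members, gene lists and gates were chosen with earlier results of these data known. All members are accounted for, and full values are given for those at 50 CPM or more in neurons of either stage and for the 5 transporters. Of the other release genes, the 5 with the largest neuron-to-glia ratio are named, and others were named after their values were seen. The grouping by *Isl1* was made after values were seen. Positions are from GENCODE mouse M39 on GRCm39. Promoters are from RefSeq (GRCm38.p6), with entries for 32 of 39 members. The processing was varied in 19 ways, and in 2 more chosen after seeing the data.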

Additional observations from a re-analysis of the deposited data

Results flagged for a closer look

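In the outside cells of E11.5, which no comparison above uses, 2 members stood above all 4 lineage states with intervals that did not overlap. *Stx1a* was at 63.6 (41.9–92.6) CPM in these 48 cells, on 27 UMIs, against 27.1 in neurons and 8.26 in glia. *Sv2a* was at 35.4 (19.8–58.3) CPM on 15 UMIs, against 7.24 in neurons and 1.22 in glia. The neuron markers summed to 189 CPM in the outside cells against 7702 in neurons. *Sypl* was at 68.4 (45.8–98.2) CPM there, against 66.8 (59.2–75.2) in glia, with intervals that overlap. At E12.5 *Stx1a* and *Sv2a* were at 19.8 and 6.82 CPM in 238 outside cells.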

How the results depend on the processing

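The processing was varied in 19 ways and in 2 more chosen after seeing the data, and over the 16 summary results these gave 209 values near the main one and 47 that moved. No alternative leaves out a replicate, since each stage is 1 library. No paired analysis was possible because each stage has 1 library and the labels carry no replicate number. The cause was not tested in any case below except where fewer genes or cells enter by construction. Counts below are out of the members compared, with the share of all genes under the same setting in parentheses. Members higher in nascent neurons than in progenitors at E12.5 numbered 13 of 18 (11.7%) with 2 UMIs of each gate gene. They numbered 11 of 14 (12.3%) when the neuron gates also had *Sox10* at 0 and glia were strict (the combined gate, added). With a floor of 100 UMIs they numbered 13 of 13 (8.43%). At E11.5 they numbered 9 of 9 (11.2%) with states set after thinning and 5 of 6 (8.33%) with the floor of 100. For members higher in neurons than in nascent neurons, the E12.5 library gave 24 of 34 (11.9%) with 2 UMIs of each gate gene. The combined gate gave 22 of 34 (12.1%) there, 1.5-fold 22 of 34 (16.8%) and 3-fold 4 of 34 (3.26%). In the E11.5 library, 2 UMIs of each gate gene gave 10 of 28 (5.62%) and the combined gate 12 of 27 (5.39%). A 1.5-fold limit gave 12 of 30 (15.7%) and 3-fold 2 of 30 (2.50%) in that library. States set after thinning gave 17 of 29 (6.04%) there, and the floor of 100 gave 3 of 12 (2.27%). That floor also left 6 of 9 members (5.19%) higher in neurons than in glia and 4 of 4 (6.92%) higher than in progenitors at E11.5. Members higher in E12.5 than in E11.5 neurons numbered 3 of 34 (8.92%) with 2 UMIs of each gate gene and 2 of 34 (9.53%) with the combined gate. They numbered 19 of 34 (17.8%) at 1.5-fold, 2 of 34 (4.18%) at 3-fold and 11 of 34 (10.8%) from the mean of the cells' own CPM. Lower was 1 of 34 with 2 UMIs (4.50%), the combined gate (3.63%) and 1.5-fold (12.3%), and 1 of 37 with no floor (9.85%). The *Slc17a6* share of neurons was 22.3% and 32.7% without thinning, 1.94% and 2.13% when 2 of its UMIs were required and 17.0% and 16.4% with the combined gate, and at E12.5 it was 15.2% with 2 UMIs of each gate gene, 15.1% with *Sox10* at 0, 7.67% thinned to 1000 UMIs and 15.0% in a second draw. The median number of members per neuron at E11.5 was 2 with 2 UMIs of each gate gene, with states set after thinning or with *Sox10* at 0, 3 with the combined gate and 4 without thinning, and at E12.5 it was 4 with 2 UMIs of each gate gene or the combined gate, 7 without thinning and 2 thinned to 1000. In glia it was 2 at both stages without thinning. Depth limits the low members: a count of 0 allows a level of up to 2.71 CPM in E11.5 neurons and 3.02 CPM in E11.5 progenitors, at 3 UMIs.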

Other observations

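Among the 58 cells of E11.5 left aside, which had none of the gate genes and too few outside markers, *Nrxn3* was at 337 (279–404) CPM, against 35.3 in neurons of that stage. Its 117 UMIs were in 6 cells, 43 of them in 1 cell. *Syt4* had 29 UMIs there, all in 1 cell, against 4 in the 103 neurons. The 2 spinal interneuron markers summed to 80.7 CPM in these cells and to 0 in neurons of that stage.

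At E12.5, *Nrxn3* was at 32.1 CPM and *Nrxn2* at 19.1 in outside cells, 6.92-fold (4.34–11.2) and 9.07-fold (4.68–18.3) higher than in glia, while *Syp* was at 0.682 and *Slc17a6* had 0 UMIs. Of the 25 members with enough UMIs, 9 were higher and 4 lower in outside cells than in glia at that stage (higher *Snap25*, *Stx1a*, *Syt1*, *Syt13*, *Sv2a*, *Rab3b*, *Pclo*, *Nrxn2* and *Nrxn3*, lower *Syt11*, *Sv2b*, *Syp* and *Sncg*), with 13.5% and 10.8% of all genes.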
